A study of Mus musculus with 4 samples.

Results

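The glutathione, peroxiredoxin and antioxidant enzymes of mouse testis are described here as a group of 57 genes among the 49492 gene rows of a count table. Members were chosen by gene symbol alone: the cytosolic and microsomal glutathione S-transferases (GSTs), the glutathione peroxidases, the peroxiredoxins, the superoxide dismutases and catalase, thioredoxins and their reductases, the enzymes that make and recycle glutathione, and the NRF2 regulators Nfe2l2 and Keap1 with Nqo1, Hmox1 and Hmox2. The pseudogene row Gstm2-ps1 was left out. RNA sequencing was done on testes of male C57BL/6J mice that had all been treated with LPS (lipopolysaccharide, the endotoxin of bacteria that sets off inflammation). By the labels, 2 libraries carried a knockdown of Spry1 (shSpry1), which damps growth factor signalling, and 2 carried a control hairpin (shControl, genotype given as WT). Age, LPS dose, the route of hairpin delivery, the cells it reached, and whether a library is 1 animal or a pool are not known from the sources used here, so the p-values cover no more than the spread among these 4 libraries, which may be technical.

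The headings over the counts read LPS or NC with a number, and not the sample titles. Here NC is taken to be the control hairpin and LPS the Spry1 knockdown, which is a reading of the names, since LPS is part of every title, and it was made with some counts already seen. If the headings mean LPS against no LPS, every difference below belongs to that contrast, so the groups go by their headings. Libraries held 17612342 to 22451132 counts. Spry1 had 26 and 17 counts in the LPS columns against 45 and 41 in the NC columns, a log2 fold change (LPS columns over NC columns, ± SE) of -0.82 ± 0.28 (edgeR quasi-likelihood test, Benjamini-Hochberg adjusted p = 0.0212). Its counts are low, 24.4% of its exonic bases lie on a gene row of the opposite strand (Gm42922), and it does not check the reading of the headings. The Spry1 call was lost in 4 alternatives, at adjusted p 0.297 (DESeq2), 0.183 (LPS replicate 2 left out, log2 fold change -0.61), 0.0952 (NC replicate 1 left out, log2 fold change -0.79) and 0.0653 (NC replicate 2 left out, log2 fold change -0.83), over a range of 0.015 to 0.297. Markers of germ cells, Sertoli cells and Leydig cells were all detected.

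Glutathione is a small thiol that cells keep at high concentration. Glutathione peroxidases and peroxiredoxins use it, or thioredoxin, to reduce peroxides, superoxide dismutases turn superoxide into hydrogen peroxide, and GSTs join glutathione to reactive lipids, steroids and foreign compounds. The transcription factor NRF2 (gene Nfe2l2) drives many of these genes, and KEAP1 holds it in check by directing its degradation. In testis these enzymes protect Leydig cells, whose steroid synthesis produces oxidants, and germ cells, whose membranes are rich in oxidisable lipids, and Gpx4 also provides structural protein of the sperm midpiece.

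Of the 57 genes, 53 had enough counts to be tested. The remaining 4 were Gpx2, Gpx5, Gpx7 and Gstp3. Of these 53, the LPS columns were higher than the NC columns in 9 genes and lower in 12 at an adjusted p under 0.05, and 32 were not called. The called share was 39.6%, beside 31.5% of the 20855 genes tested in all. By direction, 17.0% of the tested members were higher, beside 15.2% of all genes, and 22.6% were lower, beside 16.3% of all genes. With DESeq2 in place of edgeR, 2 members were higher and 8 lower, and 14.6% of all genes were called. Under library size as the only scaling, 13 members were higher and 9 lower, and 62.0% of the calls over all genes were rises, where TMM scaling gave 48.3%. The members' median log2 fold change was -0.06, beside 0.00 for all genes, and their median absolute log2 fold change was 0.241, beside 0.217. Changes were small: 1 member, Nqo1, had a called log2 fold change of at least 1 in size, where 5.91% of all genes did. The 2 LPS libraries lay apart from the 2 NC libraries in 38 tested members (71.7%, 14 above and 24 below), beside 64.1% of all genes, and all 21 called members were among these 38. The called rises ran from 0.21 to 0.77 and the called falls from -0.14 to -1.48 on the log2 scale.

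**Figure D1:**
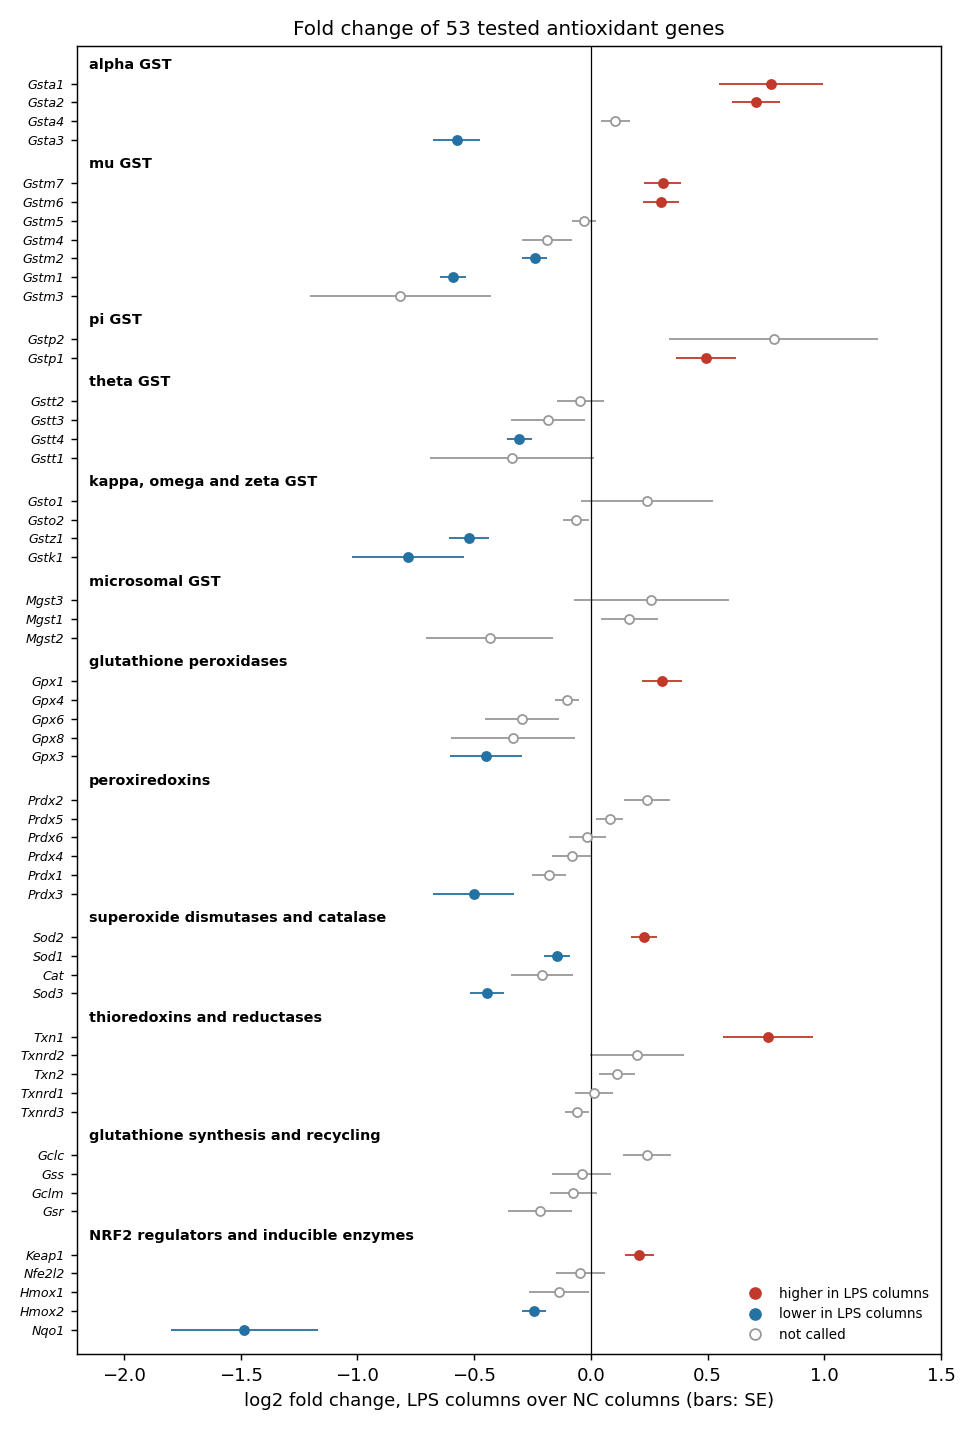
Log2 fold change (horizontal axis, LPS columns over NC columns) of the 53 tested antioxidant genes, grouped by enzyme class. Points are edgeR estimates from 2 libraries per group, bars are SE, and filled points are called at an adjusted p under 0.05. Nqo1, at -1.48, lies farthest from 0, and both the alpha and the mu class hold called genes on both sides of 0.

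Markers of several cell types also differed between the groups. Beside the counts of each list below, 15.2% of all genes tested were higher and 16.3% were lower. In bulk tissue, fewer cells of a type and less RNA per cell cannot be told apart. CPM is the count scaled to the TMM-adjusted library total. Each list is given with its marker of highest mean CPM and that marker's log2 fold change, whether or not it moved with the list. Summed Leydig markers were at 498 and 576 CPM in the LPS columns against 908 and 951 CPM in the NC columns (2 higher, 6 lower and 2 not called of 10 tested). Insl3 had the highest level and was not called (-0.07 ± 0.06), and Cyp17a1, next in level, fell (-2.46 ± 0.07). Summed elongating spermatid markers were at 26700.0 and 26645 CPM in the LPS columns against 35093 and 34366 CPM in the NC columns (0 higher, 7 lower and 3 not called of 10 tested). Odf2 had the highest level and fell (-0.24 ± 0.05). Sertoli markers summed to 1312 and 1295 CPM in the LPS columns against 965 and 973 CPM in the NC columns (8 higher, 1 lower and 4 not called of 13 tested). Clu had the highest level and rose (0.46 ± 0.05). Macrophage markers summed to 80.8 and 87.8 CPM in the LPS columns against 60.3 and 66 CPM in the NC columns (5 higher, 4 lower and 1 not called of 10 tested). Mrc1 had the highest level and fell (-0.67 ± 0.10), while Mpeg1, next in level, rose to 18.9 CPM in the LPS columns, against 7.15 CPM in the NC columns. Neutrophil markers summed to 4.11 and 4.59 CPM in the LPS columns against 1.45 and 1.8 CPM in the NC columns (2 higher, 0 lower and 1 not called of 3 tested). Mpo had the highest level and rose (1.14 ± 0.36), a call that did not hold under every alternative. S100a9 also rose, with 35 and 32 counts against 0 in each NC library. Csf3r was tested and not called (0.36 ± 0.39). The rest of the 10 listed markers were too scarce to be tested and did not all move alike. S100a8 had 5 and 2 counts under the LPS headings against 0 and 1 under NC, whereas Ly6g was counted only under NC (4 and 6). Erythroid markers summed to 75.8 and 74.6 CPM in the LPS columns against 90.5 and 98.3 CPM in the NC columns (0 higher, 3 lower and 2 not called of 5 tested). Bpgm had the highest level and fell (-0.25 ± 0.06). Epididymis markers, with Gpx5 among them, summed to 4.87 and 4.2 CPM in the LPS columns against 5.95 and 5.75 CPM in the NC columns (0 higher, 0 lower and 2 not called of 2 tested), with 4 of the 10 at 0 in every library. Wfdc15a had the highest level and was not called (-0.21 ± 0.17). The remaining lists had 4 higher, 1 lower and 1 not called of 6 tested for peritubular cells, 3 higher, 0 lower and 4 not called of 7 tested for spermatogonia, 2 higher, 1 lower and 6 not called of 9 tested for spermatocytes, 1 higher, 5 lower and 3 not called of 9 tested for round spermatids and 2 higher, 2 lower and 3 not called of 7 tested for endothelium. Their markers of highest level were Myh11 for peritubular cells (0.57 ± 0.05), Stra8 for spermatogonia (0.81 ± 0.08), Ldhc for spermatocytes (not called, -0.04 ± 0.05), Spaca1 for round spermatids (0.27 ± 0.05, the 1 marker of that list that rose) and Vwf for endothelium (-0.45 ± 0.12). The part of these shifts in the antioxidant results was not tested.

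Levels between genes were compared per gene length, as TPM (transcript share of the library, from the counts and the deposited gene lengths). A few genes made up most of the message of the group. The mean TPM of the 4 libraries gave Gstm5 36.8% of the members' sum, and the 8 genes with the highest means together gave 84.3%. Gstm5, a mu-class GST abundant in testis and brain, was at 2589.6 TPM in the LPS columns and 2477 TPM in the NC columns. After it came Sod1 (cytosolic copper-zinc superoxide dismutase), Gpx4 (the phospholipid hydroperoxide peroxidase), Gstm1, Gstt4, Hmox2 (the constitutive haem oxygenase), Gstm2 and Txnrd3 (thioredoxin-glutathione reductase, a form known from testis), with mean levels between 420.3 and 592 TPM. Nqo1, the member with the largest change, was among the less abundant, at 1.16 TPM in the LPS columns and 3.02 TPM in the NC columns. The summed level of mu-class GSTs was 3370 and 3605 TPM in the LPS columns against 3474 and 3641 TPM in the NC columns. The groups thus overlapped although 4 of the 7 genes were called, beside 31.5% called over all genes.

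**Figure D2:**
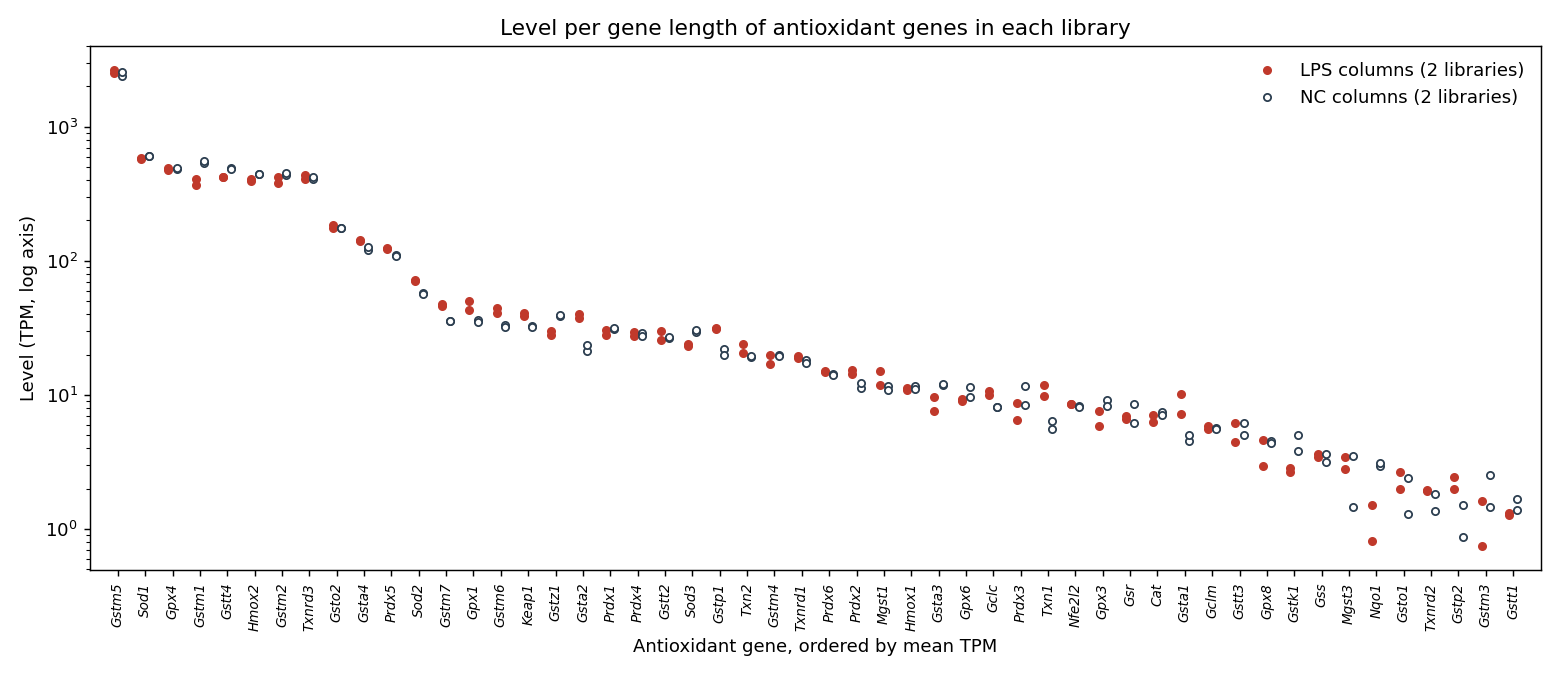
Level per gene length (TPM, log axis) of the 52 antioxidant genes with a mean of at least 1 TPM, ordered by mean level. Each point is 1 library, with the LPS columns filled and the NC columns open. Gstm5 stands above all others, with a mean of 2533 TPM over the 4 libraries.

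The mu-class GSTs, which conjugate glutathione to electrophiles, lie side by side on chromosome 3 (mm10, 107895821 to 108044894). Within this cluster 2 genes rose, 2 fell and 3 were not called, beside 15.2% higher and 16.3% lower over all genes. Gene levels are given here and below in CPM as mean ± SD, n = 2 per group. Gstm1 had 4319 and 4350 counts in the LPS columns against 7458 and 7347 in the NC columns. Gstm1 fell to 231 ± 17.3 CPM in the LPS columns, against 348 ± 13.5 CPM in the NC columns (log2 fold change -0.59 ± 0.06, edgeR adjusted p = 7.87e-11). Gstm2 had 5066 and 5099 counts in the LPS columns against 6875 and 6739 in the NC columns. Gstm2 fell to 271 ± 20.2 CPM in the LPS columns, against 320.4 ± 11.3 CPM in the NC columns (log2 fold change -0.24 ± 0.05, edgeR adjusted p = 0.000783). For both genes the LPS libraries had the lower levels. Gstm7 had 593 and 551 counts in the LPS columns against 536 and 510 in the NC columns. Gstm7 rose to 30.5 ± 0.546 CPM in the LPS columns, against 24.6 ± 0.351 CPM in the NC columns (log2 fold change 0.31 ± 0.08, edgeR adjusted p = 0.00286). Its neighbour Gstm6 had 652 and 635 counts in the LPS columns against 616 and 567 in the NC columns. Gstm6 rose to 34.3 ± 1.76 CPM in the LPS columns, against 27.8 ± 0.256 CPM in the NC columns (log2 fold change 0.30 ± 0.08, edgeR adjusted p = 0.00269). For Gstm6 and Gstm7 the scaled levels of both LPS libraries lay above both NC libraries. Gstm5, by far the most abundant, had 25660 and 24518 counts in the LPS columns against 28937 and 29035 in the NC columns. Gstm5 averaged 1337 ± 50.4 CPM in the LPS columns and 1365 ± 70.7 CPM in the NC columns and was not called (log2 fold change -0.03 ± 0.05, edgeR adjusted p = 0.71), with overlapping groups.

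A ratio of 2 genes within a library does not depend on how the libraries are scaled, and 8 such ratios were computed. The count of Gstm1 divided by that of Gstm7 was 7.28 and 7.89 in the LPS columns against 13.9 and 14.4 in the NC columns. Gstm1 over Gstm6 was 6.62 and 6.85 in the LPS columns against 12.1 and 13 in the NC columns, and Gstm1 over Gstm5 was 0.168 and 0.177 in the LPS columns against 0.258 and 0.253 in the NC columns. In all 3 ratios the LPS libraries lay below the NC libraries. With Gstm7 and Gstm6 this had to follow, since their scaled levels and those of Gstm1 lay apart in opposite directions. These ratios are thus no separate support for the calls. A two-sided exact permutation test of 2 libraries against 2 gave p = 0.333 for each, the smallest p this design allows, so it could not show a difference. Of the other mu genes, Gstm4 (-0.19 ± 0.11) and the scarce Gstm3 (-0.82 ± 0.39) were not called, though Gstm3 passed as lower in 1 alternative, at adjusted p 0.0302 (LPS replicate 1 left out, log2 fold change -1.51), over a range of 0.0302 to 0.697. Exons of 4933431E20Rik on the opposite strand cover 13.9% of Gstm5. The Gstm6 call was lost in 1 alternative, at adjusted p 0.0552 (DESeq2), over a range of 0.000608 to 0.0552. That of Gstm7 was lost in 1 alternative, at adjusted p 0.0625 (DESeq2), over a range of 0.000666 to 0.0625. Reads of near-identical genes cannot be placed with certainty: of the 50-base words in its annotated transcripts, Gstm1 shared 18.9% with another gene and Gstm7 0.53%.

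**Figure D3:**
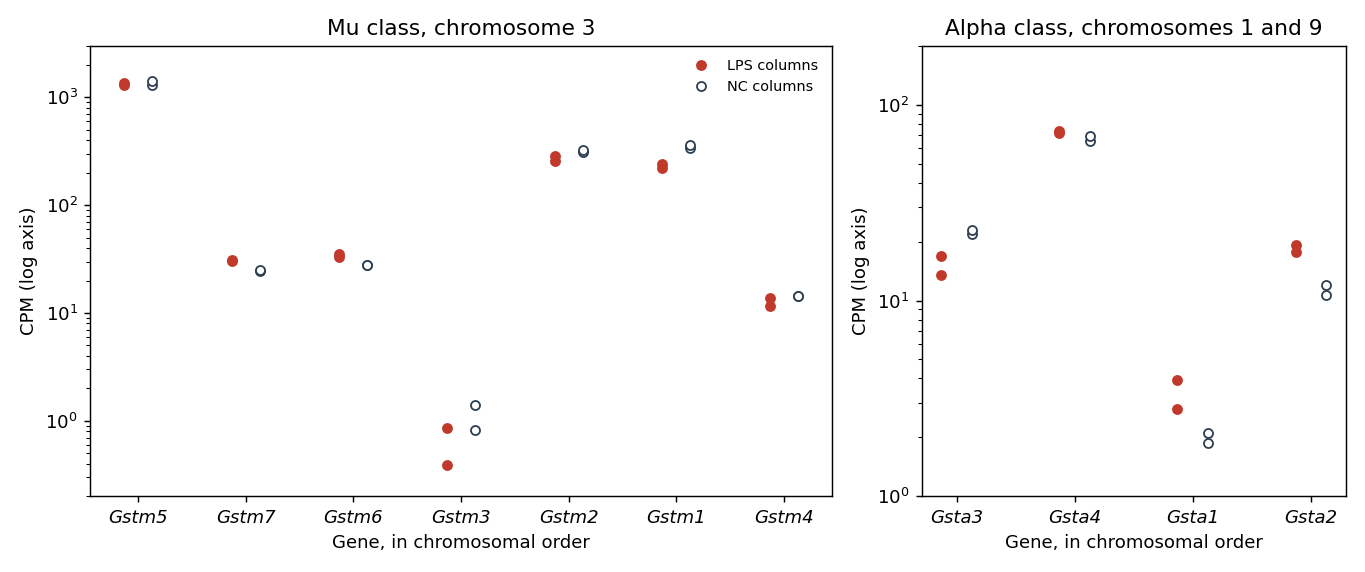
CPM (log axis) of the 7 mu-class and 4 alpha-class GST genes in each library, in chromosomal order; filled points are the LPS columns and open points the NC columns. Gstm1 and Gsta3 are lower, and Gstm6, Gstm7, Gsta1 and Gsta2 higher, in both LPS libraries than in both NC libraries.

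Alpha-class GSTs, which handle steroids and products of lipid peroxidation, also held called genes in both directions. Gsta2 had 377 and 317 counts in the LPS columns against 234 and 246 in the NC columns. Gsta2 rose to 18.4 ± 0.971 CPM in the LPS columns, against 11.3 ± 0.958 CPM in the NC columns (log2 fold change 0.71 ± 0.10, edgeR adjusted p = 1.28e-06). Gsta1 had 77 and 50 counts in the LPS columns against 41 and 43 in the NC columns. Gsta1 rose to 3.35 ± 0.782 CPM in the LPS columns, against 1.98 ± 0.164 CPM in the NC columns (log2 fold change 0.77 ± 0.22, edgeR adjusted p = 0.00711). These genes are near-identical: 90.5% of the 50-base words of Gsta1 and 49.8% of those of Gsta2 occur in another gene, among them Gm3776 and Gm10639, so how the reads divide between them is uncertain. Gsta3, whose human counterpart isomerises steroid intermediates, lies apart from them on chromosome 1 (mm10, 21240589 to 21265661). It had 265 and 300 counts in the LPS columns against 483 and 471 in the NC columns. Gsta3 fell to 15.1 ± 2.37 CPM in the LPS columns, against 22.5 ± 0.71 CPM in the NC columns (log2 fold change -0.57 ± 0.10, edgeR adjusted p = 2.07e-05). The count of Gsta3 over that of Gsta2 was 0.703 and 0.946 in the LPS columns against 2.06 and 1.92 in the NC columns (exact permutation p = 0.333, the smallest possible). That the ratio separates follows from the scaled levels of both genes, which lay apart in opposite directions. Gsta4, which clears the lipid aldehyde hydroxynonenal, was the most abundant of the class, with 1418 and 1308 counts in the LPS columns against 1444 and 1425 in the NC columns. Gsta4 averaged 72.6 ± 0.927 CPM in the LPS columns and 67.5 ± 2.7 CPM in the NC columns and was not called (log2 fold change 0.10 ± 0.06, edgeR adjusted p = 0.211). Gsta4 passed as higher in 1 alternative, at adjusted p 0.0327 (library size as the only scaling), over a range of 0.0327 to 0.597. The Gsta1 call was lost in 2 alternatives, at adjusted p 0.181 (DESeq2) and 0.186 (LPS replicate 1 left out, log2 fold change 0.50), over a range of 0.000909 to 0.186.

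Among the other transferases, the pi-class gene Gstp1 rose and Gstt4, Gstz1 and Gstk1 fell. Gstp1 had 191 and 170 counts in the LPS columns against 156 and 134 in the NC columns. Gstp1 rose to 9.6 ± 0.12 CPM in the LPS columns, against 6.81 ± 0.395 CPM in the NC columns (log2 fold change 0.49 ± 0.13, edgeR adjusted p = 0.0028). Gstp1 shares 33.7% of its 50-base words with other genes, chiefly its copy Gstp2, so how the reads divide between them is uncertain. Gstp2, which shares 54.3% of its 50-base words with other genes, was not called (0.78 ± 0.45), and Gstp3 had 0 counts in every library. Gstt4, a theta-class gene, had 3324 and 3024 counts in the LPS columns against 4581 and 4301 in the NC columns. Gstt4 fell to 169 ± 0.505 CPM in the LPS columns, against 209 ± 1.01 CPM in the NC columns (log2 fold change -0.31 ± 0.05, edgeR adjusted p = 2.19e-05). Its chromosome 10 neighbours Gstt1, Gstt2 and Gstt3 were not called, with log2 fold changes between -0.34 and -0.04. Exons of Gm20441 cover 19.9% of Gstt3. Gstz1, the maleylacetoacetate isomerase of tyrosine breakdown, had 373 and 357 counts in the LPS columns against 602 and 584 in the NC columns. Gstz1 fell to 19.5 ± 0.756 CPM in the LPS columns, against 27.9 ± 0.78 CPM in the NC columns (log2 fold change -0.52 ± 0.09, edgeR adjusted p = 8.71e-06). Exons of Pomt2, itself lower (log2 fold change -0.19 ± 0.07, edgeR adjusted p = 0.0358), cover 8.3% of Gstz1. Gstk1, the kappa-class enzyme of mitochondria and peroxisomes, had 31 and 30 counts in the LPS columns against 53 and 66 in the NC columns. Gstk1 fell to 1.63 ± 0.0759 CPM in the LPS columns, against 2.81 ± 0.571 CPM in the NC columns (log2 fold change -0.78 ± 0.24, edgeR adjusted p = 0.0112). Gsto2, an omega-class enzyme that reduces dehydroascorbate, had 2158 and 2069 counts in the LPS columns against 2550 and 2452 in the NC columns. Gsto2 averaged 113 ± 4.52 CPM in the LPS columns and 118 ± 2.55 CPM in the NC columns and was not called (log2 fold change -0.06 ± 0.06, edgeR adjusted p = 0.437), as was its scarce neighbour Gsto1 (0.24 ± 0.28). None of the 3 microsomal GSTs was called by edgeR, DESeq2 or limma-voom, and 0 had an unadjusted edgeR p under 0.05. Over all genes tested, edgeR called 31.5%. Mgst1, the form of the endoplasmic reticulum, had 191 and 220 counts in the LPS columns against 219 and 197 in the NC columns. Mgst1 averaged 11 ± 1.86 CPM in the LPS columns and 9.78 ± 0.249 CPM in the NC columns and was not called (log2 fold change 0.16 ± 0.12, edgeR adjusted p = 0.332), and Mgst2 and Mgst3 were at -0.43 ± 0.27 and 0.26 ± 0.33. The Gstk1 call was lost in 3 alternatives, at adjusted p 0.22 (DESeq2), 0.0535 (LPS replicate 1 left out, log2 fold change -0.73) and 0.174 (NC replicate 2 left out, log2 fold change -0.57), over a range of 0.00463 to 0.22. That of Gstp1 was lost in 1 alternative, at adjusted p 0.101 (DESeq2), over a range of 0.00126 to 0.101.

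Of 5 tested glutathione peroxidases, 1 rose, 1 fell and 3 were not called, beside 15.2% higher and 16.3% lower over all genes. Gpx1, the cytosolic selenoenzyme, had 498 and 523 counts in the LPS columns against 489 and 449 in the NC columns. Gpx1 rose to 27.3 ± 2.85 CPM in the LPS columns, against 22.1 ± 0.241 CPM in the NC columns (log2 fold change 0.30 ± 0.09, edgeR adjusted p = 0.0065). Gpx3, the secreted plasma form, had 110 and 77 counts in the LPS columns against 155 and 134 in the NC columns. Gpx3 fell to 4.95 ± 0.897 CPM in the LPS columns, against 6.79 ± 0.363 CPM in the NC columns (log2 fold change -0.45 ± 0.15, edgeR adjusted p = 0.023). Gpx4, the most abundant peroxidase, had 6548 and 6133 counts in the LPS columns against 7800 and 7598 in the NC columns. Gpx4 averaged 338 ± 7.96 CPM in the LPS columns and 362 ± 11.2 CPM in the NC columns and was not called (log2 fold change -0.10 ± 0.05, edgeR adjusted p = 0.136). Transcripts of Gpx4 share 34.7% of 50-base words with other genes, chiefly a processed copy, Gpx4-ps2. Gpx6 and Gpx8 were at -0.29 ± 0.16 and -0.34 ± 0.27 and were not called. Gpx5, known as the epididymal peroxidase, had 1 count in each LPS library and 0 in each NC library. Gpx2 had 1 and 0 counts in the LPS libraries and 0 in both NC libraries. For Gpx7 the LPS libraries had 4 and 9 counts and the NC libraries 10 and 2. At this depth no difference was detectable in these 3 genes. The Gpx1 call was lost in 2 alternatives, at adjusted p 0.106 (DESeq2) and 0.178 (LPS replicate 2 left out, log2 fold change 0.20), over a range of 0.000864 to 0.178. That of Gpx3 was lost in 4 alternatives, at adjusted p 0.276 (DESeq2), 0.059 (library size as the only scaling), 0.264 (LPS replicate 2 left out, log2 fold change -0.28) and 0.13 (NC replicate 1 left out, log2 fold change -0.39), over a range of 0.00506 to 0.276.

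Peroxiredoxins, which reduce hydrogen peroxide through a reactive cysteine, had 1 lower, 0 higher and 5 not called of 6, beside 31.5% called over all genes. Prdx3, the mitochondrial form, had 77 and 92 counts in the LPS columns against 117 and 154 in the NC columns. Prdx3 fell to 4.53 ± 0.881 CPM in the LPS columns, against 6.41 ± 1.55 CPM in the NC columns (log2 fold change -0.50 ± 0.17, edgeR adjusted p = 0.0231). The Prdx3 call was lost in 4 alternatives, at adjusted p 0.269 (DESeq2), 0.0582 (library size as the only scaling), 0.234 (LPS replicate 1 left out, log2 fold change -0.31) and 0.43 (NC replicate 2 left out, log2 fold change -0.24), over a range of 0.000918 to 0.43. Prdx2, a cytosolic form abundant in red cells, had 346 and 337 counts in the LPS columns against 321 and 333 in the NC columns. Prdx2 averaged 18.2 ± 0.933 CPM in the LPS columns and 15.4 ± 1.16 CPM in the NC columns and was not called (log2 fold change 0.24 ± 0.10, edgeR adjusted p = 0.0582). Prdx2 passed as higher in 2 of the 9 alternatives that have no replicate block, at adjusted p 0.018 (library size as the only scaling) and 0.0448 (NC replicate 2 left out, log2 fold change 0.32), over a range of 0.018 to 0.35 in those 9. Exons of Rnaseh2a and Junb on the opposite strand cover 11.5% of Prdx2. Prdx1, another cytosolic form (log2 fold change -0.18 ± 0.07, edgeR adjusted p = 0.0586), passed as lower in 1 of the 9 alternatives that have no replicate block, at adjusted p 0.0491 (LPS replicate 2 left out, log2 fold change -0.23), over a range of 0.0491 to 0.361 in those 9. Prdx5 was the most abundant of the class per length, with 2139 and 1874 counts in the LPS columns against 2227 and 2068 in the NC columns. Prdx5 averaged 107 ± 2.52 CPM in the LPS columns and 101 ± 0.299 CPM in the NC columns and was not called (log2 fold change 0.08 ± 0.06, edgeR adjusted p = 0.312). Prdx5 passed as higher in 1 alternative, at adjusted p 0.0474 (library size as the only scaling), over a range of 0.0474 to 0.615, and exons of Trmt112 cover 19.1% of it. Prdx4, the form of the secretory pathway, had 497 and 414 counts in the LPS columns against 574 and 516 in the NC columns. Prdx4 averaged 24.2 ± 1.43 CPM in the LPS columns and 25.6 ± 0.664 CPM in the NC columns and was not called (log2 fold change -0.08 ± 0.08, edgeR adjusted p = 0.505). Prdx6, which has a single reactive cysteine, had 577 and 514 counts in the LPS columns against 642 and 605 in the NC columns. Prdx6 averaged 29 ± 0.345 CPM in the LPS columns and 29.3 ± 0.218 CPM in the NC columns and was not called (log2 fold change -0.01 ± 0.08, edgeR adjusted p = 0.915).

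Of the 3 superoxide dismutases, 1 rose and 2 fell, beside 15.2% higher and 16.3% lower over all genes. Sod2, the manganese enzyme of mitochondria and a textbook NF-kB target, had 2206 and 1954 counts in the LPS columns against 2078 and 1941 in the NC columns. Sod2 rose to 111 ± 1.76 CPM in the LPS columns, against 94.5 ± 0.112 CPM in the NC columns (log2 fold change 0.23 ± 0.06, edgeR adjusted p = 0.00219). Sod3, the secreted enzyme, had 688 and 646 counts in the LPS columns against 1029 and 1026 in the NC columns. Sod3 fell to 35.5 ± 0.90 CPM in the LPS columns, against 48.4 ± 2.29 CPM in the NC columns (log2 fold change -0.45 ± 0.07, edgeR adjusted p = 6.22e-06). Sod1, the cytosolic enzyme, had 3027 and 2683 counts in the LPS columns against 3675 and 3465 in the NC columns. Sod1 fell to 152 ± 2.34 CPM in the LPS columns, against 168 ± 1.31 CPM in the NC columns (log2 fold change -0.14 ± 0.05, edgeR adjusted p = 0.0385). The scaled levels of the LPS and NC libraries did not overlap for any of the 3. Within each library the count of Sod2 over that of Sod1 was 0.729 and 0.728 in the LPS columns against 0.565 and 0.56 in the NC columns (exact permutation p = 0.333, the smallest possible). That this ratio separates follows from the opposite directions of both genes. Catalase (Cat), the peroxisomal enzyme that breaks down hydrogen peroxide, had 131 and 134 counts in the LPS columns against 182 and 165 in the NC columns. Cat averaged 7.07 ± 0.607 CPM in the LPS columns and 8.16 ± 0.162 CPM in the NC columns and was not called (log2 fold change -0.21 ± 0.13, edgeR adjusted p = 0.246). The Sod1 call was lost in 7 alternatives, at adjusted p 0.123 (DESeq2), 0.238 (library size as the only scaling), 0.0564 (no filter on low counts), 0.0619 (LPS replicate 1 left out, log2 fold change -0.16), 0.162 (LPS replicate 2 left out, log2 fold change -0.13), 0.132 (NC replicate 1 left out, log2 fold change -0.15) and 0.165 (NC replicate 2 left out, log2 fold change -0.14), over a range of 0.0302 to 0.238. Sod2 shares 21% of its 50-base words with other genes, chiefly AC166110.4 and Rps6ka2.

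**Figure D4:**
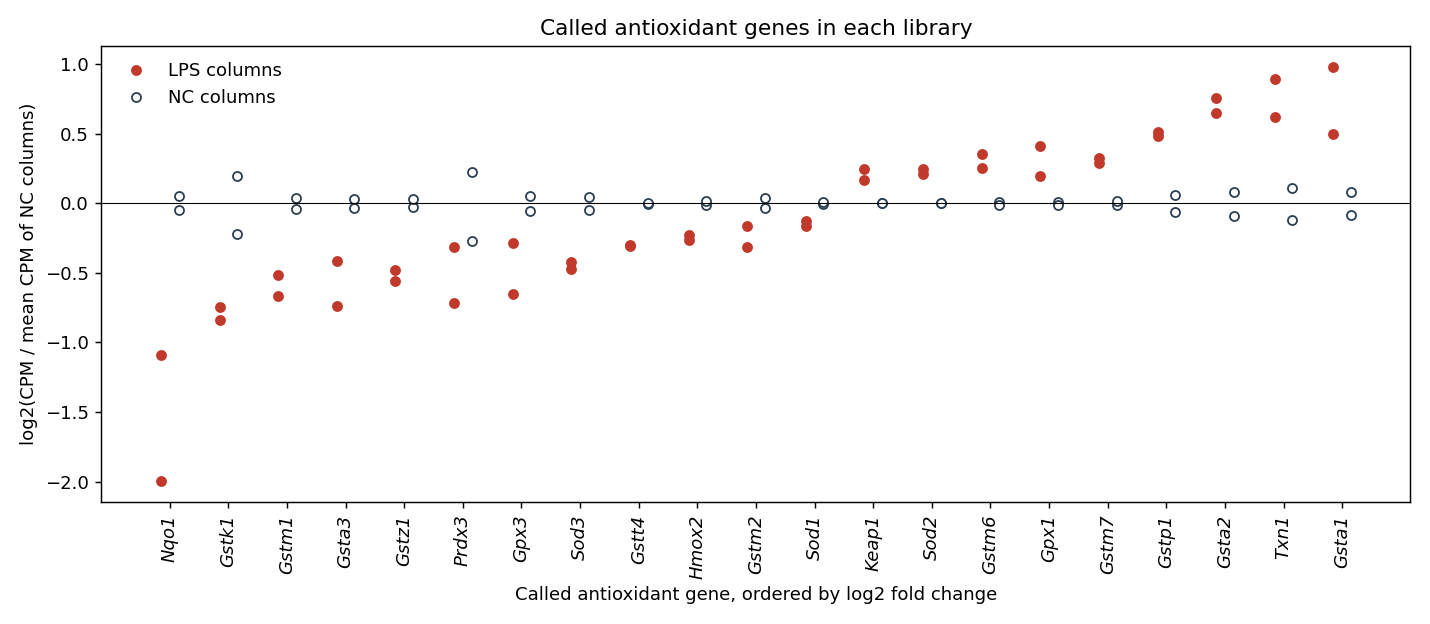
The 21 called antioxidant genes in each library, as log2 of the CPM over the mean CPM of the NC columns (vertical axis); filled points are LPS libraries and open points NC libraries. The LPS libraries of the 12 genes from Nqo1 to Sod1 lie below both NC libraries and those of the 9 genes from Keap1 to Gsta1 lie above, with the widest gap between replicates for Nqo1.

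Of 5 thioredoxin genes, 1 rose and 4 were not called, beside 31.5% called over all genes. Txn1, the cytosolic thioredoxin that supplies electrons to peroxiredoxins, had 82 and 90 counts in the LPS columns against 55 and 60 in the NC columns. Txn1 rose to 4.6 ± 0.622 CPM in the LPS columns, against 2.71 ± 0.30 CPM in the NC columns (log2 fold change 0.76 ± 0.19, edgeR adjusted p = 0.00219). The Txn1 call was lost in 1 alternative, at adjusted p 0.0937 (DESeq2), over a range of 0.000534 to 0.0937. The reductases that recharge it were not called. Txnrd3 had 9286 and 8985 counts in the LPS columns against 10954 and 10641 in the NC columns. Txnrd3 averaged 487 ± 22.7 CPM in the LPS columns and 508 ± 14.7 CPM in the NC columns and was not called (log2 fold change -0.06 ± 0.05, edgeR adjusted p = 0.399). Txnrd1, the cytosolic reductase, had 530 and 462 counts in the LPS columns against 586 and 527 in the NC columns. Txnrd1 averaged 26.4 ± 0.718 CPM in the LPS columns and 26.2 ± 0.67 CPM in the NC columns and was not called (log2 fold change 0.01 ± 0.08, edgeR adjusted p = 0.932). The mitochondrial pair Txn2 and Txnrd2 were at 0.11 ± 0.08 and 0.20 ± 0.20.

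None of the 4 genes of glutathione synthesis and recycling was called by edgeR, DESeq2 or limma-voom, and 1 of them (Gclc) had an unadjusted edgeR p under 0.05. Over all genes tested, edgeR called 31.5%. Gclc, the catalytic subunit of the rate-limiting glutamate-cysteine ligase, had 299 and 288 counts in the LPS columns against 288 and 275 in the NC columns. Gclc averaged 15.6 ± 0.678 CPM in the LPS columns and 13.2 ± 0.222 CPM in the NC columns and was not called (log2 fold change 0.24 ± 0.10, edgeR adjusted p = 0.0704). Gclc passed as higher in 1 alternative, at adjusted p 0.0223 (library size as the only scaling), over a range of 0.0223 to 0.391. Gclm, its modifier subunit, had 292 and 253 counts in the LPS columns against 336 and 314 in the NC columns. Gclm averaged 14.5 ± 0.456 CPM in the LPS columns and 15.3 ± 0.0234 CPM in the NC columns and was not called (log2 fold change -0.08 ± 0.10, edgeR adjusted p = 0.613). Gss, which completes the tripeptide and shares 15.4% of its exonic bases with rows of the opposite strand, had 171 and 147 counts in the LPS columns against 202 and 168 in the NC columns. Gss averaged 8.45 ± 0.313 CPM in the LPS columns and 8.68 ± 0.702 CPM in the NC columns and was not called (log2 fold change -0.04 ± 0.13, edgeR adjusted p = 0.852). Gsr, which reduces oxidised glutathione, had 153 and 130 counts in the LPS columns against 220 and 153 in the NC columns. Gsr averaged 7.52 ± 0.341 CPM in the LPS columns and 8.73 ± 1.8 CPM in the NC columns and was not called (log2 fold change -0.22 ± 0.14, edgeR adjusted p = 0.244). Gsr passed as lower in 1 alternative, at adjusted p 0.0394 (NC replicate 2 left out, log2 fold change -0.41), over a range of 0.0394 to 0.953.

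Nqo1, the quinone reductase most often used as a readout of NRF2 activity, had the largest called fall of the 53 tested members. It had 10 and 17 counts in the LPS columns against 43 and 43 in the NC columns. Nqo1 fell to 0.73 ± 0.314 CPM in the LPS columns, against 2.02 ± 0.10 CPM in the NC columns (log2 fold change -1.48 ± 0.32, edgeR adjusted p = 0.000349). The fitted level was 0.358 of that in the NC columns. Both LPS libraries were below both NC libraries, which had the same count, and the call held under each of the 10 alternatives, with log2 fold changes from -1.98 to -1.08. Nfe2l2, which encodes NRF2, had 257 and 233 counts in the LPS columns against 295 and 277 in the NC columns. Nfe2l2 averaged 13 ± 0.00717 CPM in the LPS columns and 13.5 ± 0.0659 CPM in the NC columns and was not called (log2 fold change -0.04 ± 0.10, edgeR adjusted p = 0.794). Keap1 had 1536 and 1321 counts in the LPS columns against 1450 and 1349 in the NC columns. Keap1 rose to 75.9 ± 2.79 CPM in the LPS columns, against 65.8 ± 0.108 CPM in the NC columns (log2 fold change 0.21 ± 0.06, edgeR adjusted p = 0.00924). Of its exonic bases 10.9% lie on the opposite-strand gene Gm16754, which also rose (log2 fold change 0.19 ± 0.07, edgeR adjusted p = 0.0438), and the strand setting of the counting is not known. The Keap1 call was lost in 3 alternatives, at adjusted p 0.071 (DESeq2), 0.0922 (LPS replicate 1 left out, log2 fold change 0.17) and 0.05005 (NC replicate 2 left out, log2 fold change 0.21), over a range of 0.00112 to 0.0922.

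Of the haem oxygenases, which break down haem, 1 fell and 1 was not called, beside 31.5% called over all genes. Hmox1, the inducible form, had 152 and 142 counts in the LPS columns against 192 and 174 in the NC columns. Hmox1 averaged 7.83 ± 0.17 CPM in the LPS columns and 8.6 ± 0.174 CPM in the NC columns and was not called (log2 fold change -0.14 ± 0.13, edgeR adjusted p = 0.45). Hmox2 had 6976 and 6481 counts in the LPS columns against 9236 and 8800 in the NC columns. Hmox2 fell to 358 ± 6.39 CPM in the LPS columns, against 424 ± 6.46 CPM in the NC columns (log2 fold change -0.24 ± 0.05, edgeR adjusted p = 0.000274). The call held under each alternative. Exons of Cdip1 on the opposite strand cover 40.2% of the Hmox2 exonic bases, and Cdip1 itself was not called (-0.12 ± 0.06).

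NRF2 binds the antioxidant response element, and its core, TGACNNNGC on either strand, was searched for in the RefSeq promoters of the members (GRCm38.p6, 250 bases before to 50 after each start). The table held promoters for 50 of the 57 genes. The core was present in 9 of their 66 promoters (13.6%), beside 13.8% of 16657 promoters of genes tested and 12.4% of all 32851 promoters. Counted by gene, 9 of 50 members (18.0%) and 16.2% of the genes tested held it. The 9 genes were Gclm, Gsta3, Gstm5, Gstm7, Mgst1, Nfe2l2, Prdx1, Sod1 and Txnrd1. Of these, Gstm7 rose, Gsta3 and Sod1 fell, and the other 6 were not called, beside 31.5% called over all genes. The 3 called genes are printed, with 2 uncalled ones that make glutathione or recharge thioredoxin, to let the cores be compared, each as the stretch around the core upstream of the start site, 5′ to 3′ on the gene's strand, with the core in capitals.
Gstm7: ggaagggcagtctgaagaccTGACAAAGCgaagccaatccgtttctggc
Gsta3: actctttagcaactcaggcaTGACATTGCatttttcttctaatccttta
Sod1: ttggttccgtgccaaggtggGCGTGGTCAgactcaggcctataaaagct
Gclm: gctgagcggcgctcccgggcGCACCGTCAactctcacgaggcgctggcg
Txnrd1: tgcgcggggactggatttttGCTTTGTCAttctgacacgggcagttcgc
The Gstm7 stretch is chr3:107931715-107931763 on the minus strand, that of Gsta3 is chr1:21240444-21240492 on the plus strand, that of Sod1 is chr16:90220686-90220734 on the plus strand, that of Gclm is chr3:122245403-122245451 on the plus strand and that of Txnrd1 is chr10:82859094-82859142 on the plus strand. The core reads TGACNNNGC in Gstm7 and Gsta3 and its reverse complement, GCNNNGTCA, in Sod1, Gclm and Txnrd1. A match describes letters in these windows and not a bound site. No match was found in the Nqo1 windows, which says only that these letters are not in them.

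Of 29 tested NRF2 target genes outside the group, 3 rose, 5 fell and 21 were not called, beside 15.2% higher and 16.3% lower over all genes. Their median log2 fold change was -0.04. Fth1, the ferritin heavy chain that stores iron, rose with 3599 and 3304 counts in the LPS columns against 2160 and 2149 in the NC columns (log2 fold change 0.86 ± 0.06, edgeR adjusted p = 6.15e-15). Slc48a1, a haem transporter, rose by 0.42 ± 0.12 and Pgd, a source of NADPH, by 0.29 ± 0.10. Ephx1, the microsomal epoxide hydrolase, fell with 1026 and 1157 counts in the LPS columns against 2372 and 2291 in the NC columns (log2 fold change -0.91 ± 0.07, edgeR adjusted p = 4.66e-13). Slc7a11, the cystine importer that feeds glutathione synthesis, was lower (-0.70 ± 0.25), as were the carboxylesterase gene Ces1d (-0.54 ± 0.15) and the aldehyde oxidase gene Aox1 (-0.47 ± 0.14). Me1, which makes NADPH, fell by a small amount (log2 fold change -0.14 ± 0.05, edgeR adjusted p = 0.0424). Gpx2, an untested member, is also in this list. Leaving out any of the 4 libraries brought the lower count of this list to 3, and 6 of the named calls did not hold throughout. The Me1 call was lost in 7 alternatives, at adjusted p 0.116 (DESeq2), 0.255 (library size as the only scaling), 0.0543 (no filter on low counts), 0.159 (LPS replicate 1 left out, log2 fold change -0.12), 0.066 (LPS replicate 2 left out, log2 fold change -0.15), 0.0893 (NC replicate 1 left out, log2 fold change -0.15) and 0.24 (NC replicate 2 left out, log2 fold change -0.11), over a range of 0.0334 to 0.255. The Slc48a1 call was lost in 3 alternatives, at adjusted p 0.161 (DESeq2), 0.072 (LPS replicate 2 left out, log2 fold change 0.36) and 0.0602 (NC replicate 2 left out, log2 fold change 0.38), over a range of 0.00343 to 0.161. The Pgd call was lost in 3 alternatives, at adjusted p 0.215 (DESeq2), 0.0942 (LPS replicate 1 left out, log2 fold change 0.27) and 0.185 (NC replicate 2 left out, log2 fold change 0.22), over a range of 0.00651 to 0.215. The Slc7a11 call was lost in 4 alternatives, at adjusted p 0.327 (DESeq2), 0.0516 (library size as the only scaling), 0.269 (LPS replicate 2 left out, log2 fold change -0.46) and 0.173 (NC replicate 1 left out, log2 fold change -0.59), over a range of 0.0115 to 0.327. The Ces1d call was lost in 3 alternatives, at adjusted p 0.145 (DESeq2), 0.0887 (LPS replicate 1 left out, log2 fold change -0.39) and 0.0726 (NC replicate 2 left out, log2 fold change -0.43), over a range of 0.00163 to 0.145. The Aox1 call was lost in 2 alternatives, at adjusted p 0.173 (DESeq2) and 0.229 (LPS replicate 1 left out, log2 fold change -0.26), over a range of 0.000396 to 0.229.

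Of 29 tested genes of glutathione turnover and transport, 2 rose, 6 fell and 21 were not called, beside 15.2% higher and 16.3% lower over all genes. Their median was -0.07. Chac1, which degrades glutathione, had 15 and 10 counts in the LPS columns against 58 and 39 in the NC columns and fell (log2 fold change -1.77 ± 0.31, edgeR adjusted p = 2.92e-05). Cbs, which starts the route from homocysteine to cysteine, had 9 and 23 counts in the LPS columns against 63 and 60 in the NC columns and fell (log2 fold change -1.75 ± 0.30, edgeR adjusted p = 1.50e-05). Its log2 fold change was -1.16 without LPS replicate 1 and -2.65 without LPS replicate 2. The dipeptidase gene Dpep2 was lower (-0.84 ± 0.29) and Dpep1 higher (0.45 ± 0.16), and the aminopeptidase gene Anpep rose by 1.56 ± 0.37. Exons of other gene rows cover 16.6% of Dpep2. Slc7a11, counted in this list too, Slc3a2, its partner subunit (-0.25 ± 0.06), and Glo1, which detoxifies methylglyoxal (-0.25 ± 0.08), were the other genes that fell. The Slc3a2 call held under each of the 10 alternatives. The Glo1 call was lost in 4 alternatives, at adjusted p 0.211 (DESeq2), 0.092 (library size as the only scaling), 0.13 (LPS replicate 1 left out, log2 fold change -0.21) and 0.248 (NC replicate 2 left out, log2 fold change -0.17), over a range of 0.0131 to 0.248. The Dpep2 call was lost in 4 alternatives, at adjusted p 0.325 (DESeq2), 0.162 (LPS replicate 1 left out, log2 fold change -0.69), 0.0687 (NC replicate 1 left out, log2 fold change -0.90) and 0.135 (NC replicate 2 left out, log2 fold change -0.77), over a range of 0.020 to 0.325. That of Dpep1 was lost in 4 alternatives, at adjusted p 0.303 (DESeq2), 0.266 (LPS replicate 1 left out, log2 fold change 0.30), 0.12 (NC replicate 1 left out, log2 fold change 0.41) and 0.05002 (NC replicate 2 left out, log2 fold change 0.49), over a range of 0.0115 to 0.303. That of Anpep was lost in 1 alternative, at adjusted p 0.0894 (DESeq2), over a range of 0.000228 to 0.0894. With NC replicate 2 left out the list had 1 gene higher.

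Relatives of thioredoxin and glutaredoxin had 3 higher, 3 lower and 30 not called of 36 tested, beside 15.2% higher and 16.3% lower over all genes, and a median of -0.03. Of the 3 sperm thioredoxins, Txndc2 and Nme8 fell and Txndc8 was not called (log2 fold change -0.19 ± 0.08, edgeR adjusted p = 0.078). Txndc2 had 25828 and 25356 counts in the LPS columns against 35241 and 33376 in the NC columns (log2 fold change -0.24 ± 0.05, edgeR adjusted p = 0.000289). Nme8 had 3363 and 2800 counts in the LPS columns against 4184 and 4184 in the NC columns (log2 fold change -0.27 ± 0.06, edgeR adjusted p = 0.000334). Txndc16 fell (-0.38 ± 0.08), and the protein disulfide isomerase gene P4hb (0.22 ± 0.06), the selenoprotein gene Selenow (0.18 ± 0.06) and the oxidase gene Ero1lb (0.16 ± 0.06) of the endoplasmic reticulum rose. The P4hb call was lost in 2 alternatives, at adjusted p 0.0552 (LPS replicate 2 left out, log2 fold change 0.18) and 0.0731 (NC replicate 1 left out, log2 fold change 0.19), over a range of 0.000466 to 0.0731. The Selenow call was lost in 4 alternatives, at adjusted p 0.158 (DESeq2), 0.158 (LPS replicate 1 left out, log2 fold change 0.15), 0.151 (NC replicate 1 left out, log2 fold change 0.17) and 0.0579 (NC replicate 2 left out, log2 fold change 0.21), over a range of 0.00338 to 0.158. The Ero1lb call was lost in 6 alternatives, at adjusted p 0.23 (DESeq2), 0.0566 (no filter on low counts), 0.0553 (limma-voom), 0.31 (LPS replicate 2 left out, log2 fold change 0.12), 0.172 (NC replicate 1 left out, log2 fold change 0.16) and 0.123 (NC replicate 2 left out, log2 fold change 0.17), over a range of 0.00605 to 0.31. The higher count was 1 without LPS replicate 2, 0 without NC replicate 1 and 1 without NC replicate 2, and the lower count was 5 without LPS replicate 1.

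Of the genes whose products make superoxide, hydrogen peroxide or nitric oxide, 15 were called, with 8 higher, 7 lower and 4 not called of 19 tested, beside 15.2% higher and 16.3% lower over all genes. The median log2 fold change was 0.30. Cybb, the membrane subunit of the phagocyte NADPH oxidase, had 166 and 167 counts in the LPS columns against 23 and 37 in the NC columns and rose (log2 fold change 2.65 ± 0.20, edgeR adjusted p = 1.78e-13). Its cytosolic partner Ncf4 had 20 and 20 counts in the LPS columns against 3 and 4 in the NC columns (log2 fold change 2.65 ± 0.49, edgeR adjusted p = 5.42e-05). Ncf1, another cytosolic subunit, had 80 and 73 counts in the LPS columns against 36 and 38 in the NC columns (log2 fold change 1.22 ± 0.21, edgeR adjusted p = 2.01e-05). Xdh, xanthine oxidoreductase, had 157 and 141 counts in the LPS columns against 60 and 51 in the NC columns (log2 fold change 1.60 ± 0.17, edgeR adjusted p = 8.57e-10). Cyba (1.13 ± 0.20) and Rac2 (0.67 ± 0.24), which belong to the same oxidase complex, also rose, as did the neutrophil gene Mpo (1.14 ± 0.36), which is also among the neutrophil markers. The Cyba call held under each of the 10 alternatives. The Rac2 call was lost in 3 alternatives, at adjusted p 0.352 (DESeq2), 0.164 (LPS replicate 1 left out, log2 fold change 0.58) and 0.233 (NC replicate 2 left out, log2 fold change 0.50), over a range of 0.0225 to 0.352. That of Mpo was lost in 4 alternatives, at adjusted p 0.259 (DESeq2), 0.071 (LPS replicate 1 left out, log2 fold change 1.12), 0.0562 (LPS replicate 2 left out, log2 fold change 1.16) and 0.142 (NC replicate 1 left out, log2 fold change 0.98), over a range of 0.00841 to 0.259. Nox3, an oxidase known from the inner ear, had 0 counts in both LPS libraries and 21 and 19 counts in the NC columns, which makes it at least 11.8-fold lower (floor of 3 counts over the group). The endothelial and neuronal nitric oxide synthase genes Nos3 (-0.83 ± 0.16) and Nos1 (-0.69 ± 0.17) and the oxidase gene Ddo (-0.66 ± 0.23) fell. Exons on the opposite strand cover 32.3% of Nos3 and 11.1% of Ncf1. The Nos1 call was lost in 2 alternatives, at adjusted p 0.0915 (DESeq2) and 0.13 (NC replicate 1 left out, log2 fold change -0.43), over a range of 4.93e-05 to 0.13. That of Ddo was lost in 5 alternatives, at adjusted p 0.336 (DESeq2), 0.0523 (library size as the only scaling), 0.0795 (LPS replicate 1 left out, log2 fold change -0.67), 0.0919 (LPS replicate 2 left out, log2 fold change -0.64) and 0.287 (NC replicate 1 left out, log2 fold change -0.46), over a range of 0.0195 to 0.336. The lower count of the list was 4 without LPS replicate 2 and 4 without NC replicate 1.

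**Figure D5:**
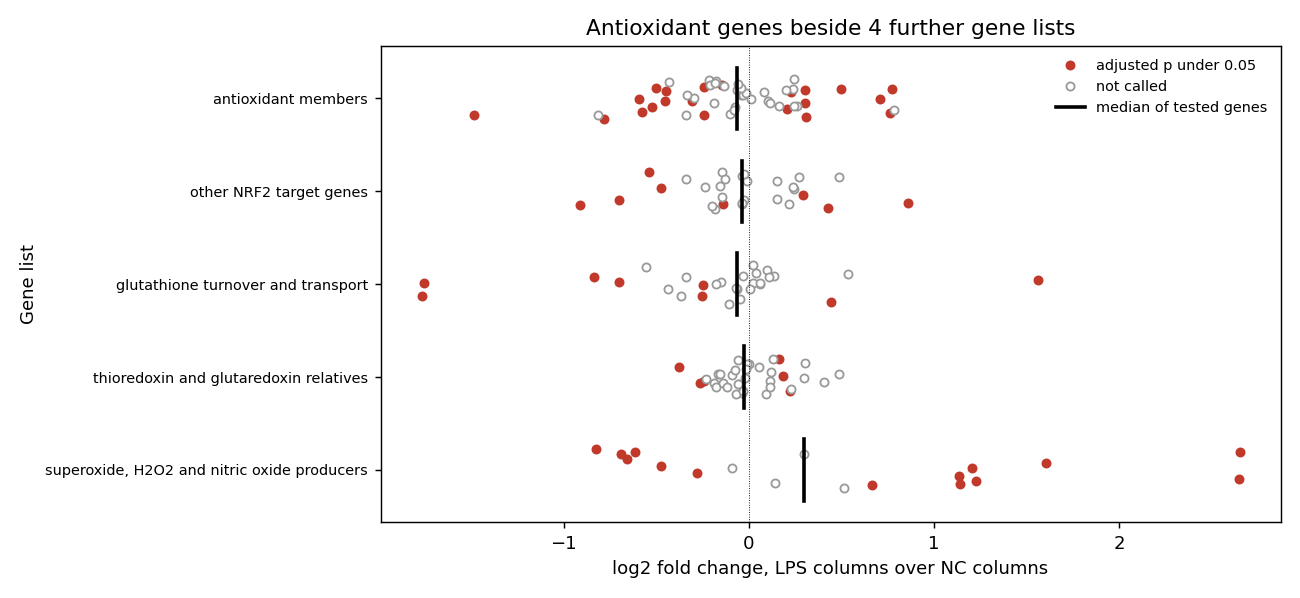
Log2 fold change (horizontal axis, LPS columns over NC columns) of the tested antioxidant members and of the tested genes of 4 further lists; each point is 1 gene, filled where the adjusted p was under 0.05, and black bars are medians. Nox3, with 0 counts in the LPS columns, is left out of the points. The oxidant-producing genes reach 2.65 (Cybb and Ncf4), while the highest antioxidant member is at 0.78 (Gstp2, not called).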

How the data were processed

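RNA of 4 testis libraries was sequenced after TRIzol extraction and stranded library preparation, per the labels' protocols. The authors deposited raw read counts per gene in 1 table with the columns of featureCounts, per the file headers, including a gene length that is of type other and was used for TPM. Per the submitters' processing notes, they used edgeR 3.12.1, DESeq, Subread 1.5.1, featureCounts, STAR 2.5.3a and Trimmomatic 0.36 with mm10. Their roles, the annotation release and the strand setting are not known from the sources used here, so reads of overlapping and near-identical genes are uncertain.

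Counts were filtered with filterByExpr, scaled by TMM and compared over all 4 libraries with edgeR 4.0.16 (quasi-likelihood test, Benjamini-Hochberg adjustment over 20855 genes, calls under 0.05). SE is the size of the log2 fold change over the root of the F statistic. DESeq2 1.42.0, limma-voom (limma 3.58.1), other scaling and filters, a replicate block and leaving out each library were alternatives. The fits were also run on simulated counts, in which every gene had the same spread between replicates beyond sampling noise. That run cannot show how the calls hold where the spread differs between genes. CPM uses TMM-scaled library sizes and TPM the deposited lengths; a count of 0 in 1 library allows up to 0.134 to 0.17 CPM (3 counts, counting error only). Replicates differed by more than sampling noise (chi-square per degree of freedom of 1.94 between LPS libraries and 1.85 between NC libraries). Residual degrees of freedom were 2, beside 34 prior ones. Exon overlap came from the deposited coordinates and shared 50-base words from GENCODE M21 transcripts.

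Members and lists were chosen with earlier results of these data known. Named in full were the called members with the 12 largest changes per direction, the highest member per class and 22 fixed members; of each further list, up to 4 called genes per direction were named, with other genes added after their values were seen. One gene of a further list is not reported here by name.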

Additional observations from a re-analysis of the deposited data

How the results depend on the processing

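No called value reversed under the alternatives run. Of the 21 called members, 10 kept the call under each of the 10 alternatives (Gsta2 and Sod2 higher; Gsta3, Gstm1, Gstm2, Gstt4, Gstz1, Hmox2, Nqo1 and Sod3 lower), and the other 11 lost it in at least 1. DESeq2 called 2 members higher and 8 lower and, over all genes, 1370 higher and 1747 lower; the cause was not tested. With library size as the only scaling 62.0% of calls over all genes were higher (4207 higher, 2579 lower), against 48.3% with TMM (3169 higher, 3394 lower), and the median of all genes moved by 0.06. Leaving out a library gave 2255 to 2730 genes higher and 2425 to 2962 lower. Spry1 had log2 fold changes from -1.08 to -0.61 when a library was left out, and -0.83 with DESeq2.

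For NRF2 targets, DESeq2 called 1 higher and 1 lower, library size only 7 and 3, and the replicate block 5 higher; leaving out a library gave 3 lower each time. For glutathione turnover, DESeq2 called 0 higher and 3 lower and library size only 4 higher; leaving out a library gave 1 to 3 higher. For thioredoxin relatives, DESeq2 called 1 higher, library size only 7 higher and the replicate block 5 lower; leaving out a library gave 0 to 3 higher and 3 to 5 lower. For oxidant producers, DESeq2 called 5 higher and 3 lower; leaving out a library gave 4 to 6 lower.

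The fit with the replicate number as a block called 10 members higher and 13 lower, adding Prdx1 and Prdx2. Same-numbered libraries showed a correlation of 0.0194 in their deviations from the group means, and the labels say nothing of shared litters or days, so the numbers do not show pairing. For scarce members such as Gpx2, Gpx5 and Gpx7, differences were not detectable at this depth. Gstp2, also scarce, was tested and not called (log2 fold change 0.78 ± 0.45).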
